A study of Mus musculus with 8 samples.

Results

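The 6 genes for the catalytic β subunits of the 20S proteasome were followed through the clusters of a single-cell RNA sequencing study of mouse dorsal root ganglia, 6 of the 9229 genes in the authors' deposited table. Members were chosen by function: Psmb5, Psmb6 and Psmb7 encode the constitutive subunits β5, β1 and β2, and Psmb8, Psmb9 and Psmb10 encode their inducible counterparts β5i, β1i and β2i. The ganglia came from C57BL/6 mice of 21 to 30 days, pooled from 4 mice a sample, with no genetic change or drug named in the labels. Living dissociated cells were exposed to an antibody to β5, the Psmb5 product, for 30 min and to a fluorescent secondary antibody for 40 min, and were sorted as positive or negative for the neuronal membrane proteasome (NMP), a 20S proteasome at the surface of neurons. The labels give 4 NMP-positive and 4 NMP-negative samples, which are 4 sequencing lanes of 1 library for each sorted population, with no biological replicate. The deposited table has no sample column, so no value below belongs to either population, and the comparison made is each of 20 clusters against all other cells.

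The 20S proteasome is a barrel of stacked rings of α and β subunits, and only β1, β2 and β5 carry active sites. The β1 site cleaves after acidic, β2 after basic and β5 after hydrophobic residues. Interferon-γ induces β1i, β2i and β5i, which take the places of the constitutive subunits in newly assembled particles, the immunoproteasome, and shift the peptides made towards those that fit major histocompatibility complex (MHC) class I molecules. Immune cells hold immunoproteasomes without stimulation, whereas neurons are known mainly for the constitutive form.

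The stretches before the start sites are shown because the constitutive and the inducible genes are known to be controlled by different factors. Nfe2l1 acts on proteasome genes through antioxidant response elements (ARE, searched as TGACNNNGC), while interferon acts on its targets through the GAS element (searched as TTCNNNGAA) and, with interferon regulatory factors, the ISRE (searched as GAAA, any 2 bases, then GAAA again). Each was searched on both strands of the 300-base window from 250 bases before to 50 after the start in RefSeq (GRCm38.p6), where 5 of the 6 members had an entry and Psmb7 had none. The last 100 bases before the start follow, 5′ to 3′ on the gene's strand, with any match in capitals.
Psmb5: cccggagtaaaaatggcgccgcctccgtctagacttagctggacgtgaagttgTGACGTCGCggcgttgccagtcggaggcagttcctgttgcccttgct
Psmb6: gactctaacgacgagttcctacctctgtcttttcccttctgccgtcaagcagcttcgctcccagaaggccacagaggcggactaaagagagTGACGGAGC
Psmb8: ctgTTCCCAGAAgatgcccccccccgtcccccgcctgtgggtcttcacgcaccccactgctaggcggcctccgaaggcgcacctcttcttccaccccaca
Psmb9: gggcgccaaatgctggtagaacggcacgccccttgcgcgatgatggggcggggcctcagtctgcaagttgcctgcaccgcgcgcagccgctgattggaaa
Psmb10: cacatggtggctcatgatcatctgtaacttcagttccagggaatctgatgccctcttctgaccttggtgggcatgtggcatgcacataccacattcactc
These lie at chr14:54617996-54618095 on the minus strand for Psmb5, chr11:70525257-70525356 on the plus strand for Psmb6, chr17:34198095-34198194 on the plus strand for Psmb8, chr17:34187331-34187430 on the minus strand for Psmb9 and chr8:105938393-105938492 on the minus strand for Psmb10. The ARE letters stood at positions -47 to -39 of Psmb5 and -9 to -1 of Psmb6, and the GAS letters at -97 to -89 of Psmb8. No searched motif was in the windows of Psmb9 or Psmb10. Among all 32851 RefSeq promoter windows, 12.4% held the ARE letters, 8.30% the GAS letters and 3.44% the ISRE letters, so a match is a description of letters and not a site. The Psmb9 window shares 275 of its 300 bases with that of Tap1, a peptide transporter gene on the opposite strand.

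The authors named the clusters, and 10 carry names of neuron types, 3 are called Low.UMI with a neuron type, and 7 are called Unknown. By the shares of cells in the table, 40.8% of all cells fell in named neuron clusters, 28.6% in Low.UMI and 30.7% in Unknown clusters. Although the labels speak of sensory neurons, markers of other cells were higher in the Unknown clusters, as the authors' deposited table shows. In Unknown.488p all 8 macrophage markers searched were higher and all 6 neuron markers lower than in the other cells, and in Unknown.1 all 8 endothelial markers were higher and all 6 neuron markers lower. All markers listed were likewise higher for satellite glia in Unknown.2 (5 of 5), mural cells in Unknown.3 (6 of 6), Schwann cells in Unknown.4 (6 of 6), and fibroblasts in Unknown.5 and in Unknown.6 (6 of 6 in each). These clusters are called macrophage-like, endothelial-like, satellite-glia-like, mural-like, Schwann-like and fibroblast-like below. The meaning of 488p in 2 cluster names is not stated.

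Calls of "higher" and "lower" rest on an adjusted p under 0.05 in the authors' deposited table for a cluster against all other cells, used only as a filter, since its units are cells and the clusters were made from the same expression values. The table lists a gene for a cluster only where the p was at most 0.01, the log2 fold change at least 0.25 in size and the gene seen in at least 10% of the cells on 1 side. A gene not listed for a cluster was therefore not read as absent. Of the 120 pairs of the 6 members and 20 clusters, 51 were listed, of which 12 were higher, 30 lower and 9 did not pass the filter. The direction is the sign of the log2 fold change, also where the share of cells moved the other way. That was so for 4 of the 12 higher and 1 of the 30 lower calls. Over all genes of the table, 10.6% of pairs were higher and 15.9% lower. The table gives neither the number of cells nor their depth, so no interval could be attached to a share of cells. Fewer transcripts per cell and a lower chance of seeing a transcript cannot be told apart in a share.

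The constitutive subunits formed 1 pattern, lower in the non-neuronal clusters. By the authors' deposited table, 20 of their 21 pairs with the Unknown clusters (95.2%) were lower and none was higher. The exception was Psmb6 in the fibroblast-like Unknown.5, with a log2 fold change of -0.50 and a deposited adjusted p of 0.0802. For all genes 27.1% of the pairs with Unknown clusters were lower, and for the 1650 genes seen in at least 50% of all cells, as all 3 constitutive genes are, 46.8% were lower. In the named neuron clusters 4 of their 30 pairs were higher and none lower, against 10.9% higher and 6.72% lower for all genes. In the Low.UMI clusters 3 of their 9 pairs were higher in mean, all 3 in fewer cells than elsewhere, against 10.9% for all genes. The filter there did not follow the mean: Psmb7 passed it in Low.UMI.Nonpep at 0.33 and not in Low.UMI.Pep at 0.59.

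Psmb5, the subunit that the sorting antibody recognises, was seen in 69.0% of all cells. The authors' deposited table had it lowest by log2 fold change in the macrophage-like Unknown.488p, with 35.6% of its cells against 69.7% of the other cells (log2 fold change -1.14, adjusted p 8.45e-16). The endothelial-like Unknown.1 followed with 52.8% of cells against 70.7% (log2 fold change -1.02, adjusted p 1.20e-62). The Schwann-like Unknown.4 had the lowest share, 34.7% against 70.0%, at -0.95 on the log2 scale. The other Unknown clusters lay between -0.92 and -0.86 in the authors' deposited table, with shares of 41.1% in Unknown.6, 55.7% in Unknown.2, 43.9% in Unknown.3 and 53.2% in Unknown.5. Both log2 fold change and share were thus below the other cells in every Unknown cluster.

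Among neurons, Psmb5 was higher in the authors' deposited table in the Non-peptidergic cluster, in 99.0% of cells against 67.4% of the other cells, with a log2 fold change of 0.30 (adjusted p 2.67e-45). It was also higher in Peptidergic.488p, with 79.2% against 68.7% (log2 fold change 0.39, adjusted p 6.38e-08). The remaining 8 named clusters were not listed for Psmb5, and together with Low.UMI.LTMR and Low.UMI.Nonpep, also not listed, they had it in a mean of 82.5% of cells. That mean follows from the overall share and the shares of the listed clusters. Psmb5 was also higher in Low.UMI.Pep at 0.69 on the log2 scale (adjusted p 0.00438), the highest log2 fold change of any constitutive member in any cluster, but there it was seen in 53.9% of cells against 71.5% of the other cells. Such a gain in mean with a loss in share ran through the Low.UMI clusters of the authors' deposited table: between 94.8% and 95.9% of all genes called higher in each of the 3 were seen in fewer cells there.

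Psmb6, the β1 subunit, was seen in 67.7% of all cells and was listed for all Unknown and all Low.UMI clusters in the authors' deposited table. It was lowest in the Schwann-like Unknown.4, with 30.1% of cells against 68.8% of the other cells (log2 fold change -0.75, adjusted p 5.64e-15), and in the endothelial-like Unknown.1, with 54.9% against 69.0% (log2 fold change -0.74, adjusted p 4.16e-35). The macrophage-like Unknown.488p had 45.2% against 68.1%, at -0.71. Its weakest fall was in the mural-like Unknown.3, at -0.49 (adjusted p 1.35e-05). It was higher in SST, with 98.7% against 65.7% (log2 fold change 0.40, adjusted p 2.17e-53), and in LTMR, a name used for low-threshold mechanoreceptors, with 99.4% against 66.4% (log2 fold change 0.28, adjusted p 1.31e-29). The 8 named neuron clusters in which it was not listed had a mean share of 95.6%. Psmb6 in Low.UMI.Nonpep was higher at 0.30 on the log2 scale, again in fewer cells, 42.0% against 71.0%.

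Psmb7, the β2 subunit, was seen in 62.6% of all cells. It was lower in the authors' deposited table in all 7 Unknown clusters, by log2 fold changes between -0.71 in the satellite-glia-like Unknown.2 and -0.34 in the Schwann-like Unknown.4. In Unknown.2 it was seen in 45.3% of cells against 64.4% of the other cells (adjusted p 9.77e-29). Unknown.4 had the lowest share, 31.1% against 63.5%, and the smallest fall in mean. No named neuron cluster passed the filter for Psmb7. Peptidergic.488p was listed at 0.26 with an adjusted p of 0.119, and the other 9 named clusters had a mean share of 98.0%. Psmb7 was higher in Low.UMI.Nonpep, at 0.33 on the log2 scale with 34.1% of cells against 66.4%.

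**Figure D1:**
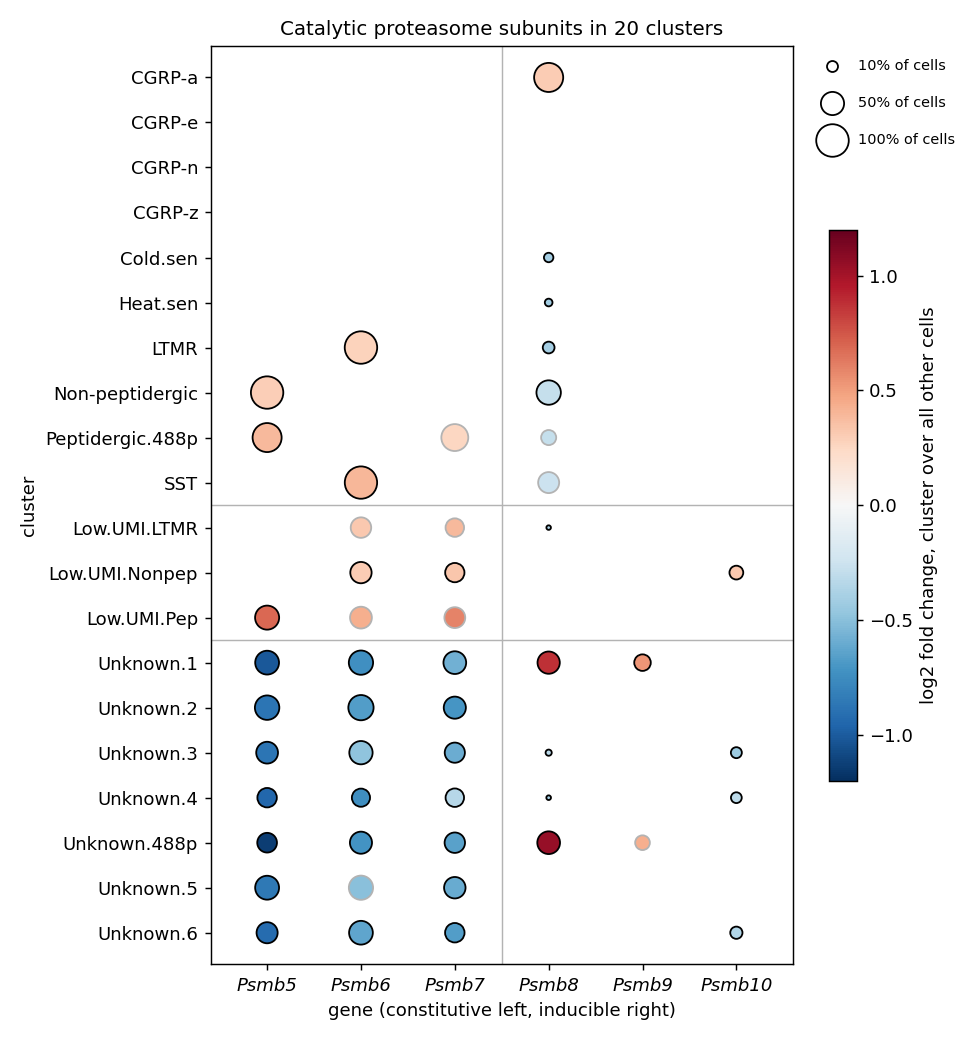
Log2 fold change of each cluster over all other cells (colour) and percent of the cluster's cells with the gene (circle area) for the 6 members (columns, constitutive left and inducible right) in 20 clusters (rows), from the authors' deposited table. Black outlines mark pairs past the adjusted p filter, grey outlines pairs listed but not past it, and empty places are pairs that are not listed; the constitutive genes are lower down the Unknown rows, and Psmb8 reaches 1.05 in Unknown.488p and 0.88 in Unknown.1.

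Neuronal transcripts were themselves seen in the Unknown clusters. Stmn2, a neuronal tubulin-binding protein gene, was in 41.1% to 55.3% of cells, depending on which of the 7 it was, according to the authors' deposited table, Tubb3, a neuronal tubulin, in 24.0% to 36.7%, and Rbfox3, a neuronal splicing factor, in 1.80% to 6.30%. The other 3 neuron markers were Uchl1, in 44.5% to 71.8% of cells, Snap25, in 8.50% to 15.3%, and Elavl4, in 5.80% to 10%. All 6 were lower than in the other cells in each of these clusters. How much of the 30.1% to 59.6% of Unknown cells with a constitutive subunit came from the same source was not tested.

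The inducible subunits did not share 1 pattern. Over the 60 pairs of Psmb8, Psmb9 and Psmb10 with clusters in the authors' deposited table, 18 were listed, 5 higher, 10 lower and 3 not past the filter. Their 8.33% higher and 16.7% lower were near the 10.6% and 15.9% of all genes. In the Unknown clusters 3 of 21 pairs were higher and 5 lower, 14.3% and 23.8%, beside 10.2% and 27.1% of all genes. In the named neuron clusters 1 of 30 was higher and 4 were lower, 3.33% and 13.3%, beside 10.9% and 6.72% of all genes. Of these 4 lower pairs 1 was seen in more cells than elsewhere, Psmb8 in Non-peptidergic. The higher pairs were Psmb8 in Unknown.488p, Unknown.1 and CGRP-a, Psmb9 in Unknown.1, and Psmb10 in Low.UMI.Nonpep.

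Psmb8, the β5i subunit, was seen in 25.3% of all cells and had the highest log2 fold changes among the 6 members. The authors' deposited table had it in 47.9% of the macrophage-like Unknown.488p against 24.9% of the other cells, with a log2 fold change of 1.05 and an adjusted p of 3.37e-13. In the endothelial-like Unknown.1 it was in 46.0% against 23.2%, with a log2 fold change of 0.88 and an adjusted p of 1.42e-66. For all genes, 9.91% were higher in Unknown.488p and 18.0% in Unknown.1. The 8 macrophage markers were each seen in 45.2% to 80.8% of Unknown.488p cells and in 0.300% to 6.80% of the other cells. Outside it, C1qb, a complement gene, was seen in 21.1% of CGRP-n, 20.2% of CGRP-e and 17.8% of CGRP-z cells, where it was lower by log2 fold change. The endothelial junction gene Cldn5 was seen in 83.8% of Unknown.1 against 1.5% of the other cells. Of the 8 macrophage markers, Cx3cr1, a chemokine receptor gene, was the 1 higher in Unknown.1 too, at 0.53 on the log2 scale in 23.4% of cells. Of the 8 endothelial markers none was higher in Unknown.488p and 1 was lower.

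The neuronal cluster CGRP-a, named for the neuropeptide CGRP of peptidergic neurons, was the third in which Psmb8 was higher. According to the authors' deposited table it was seen in 79.5% of CGRP-a cells against 21.0% of the other cells, the highest share of Psmb8 listed in any cluster, with a log2 fold change of only 0.30 (adjusted p 5.17e-209). For all genes, 12.5% were higher in CGRP-a. None of the 8 macrophage markers was listed there, and 5 of the 8 endothelial markers were listed, all lower by log2 fold change. Egfl7, an endothelial growth factor gene and 1 of these 5, was nevertheless seen in more cells, 73.1% of CGRP-a against 32.1% of the other cells. Of all genes listed for CGRP-a, 81.3% were seen in more cells than elsewhere. In the Non-peptidergic cluster share and mean parted: Psmb8 was in 55.6% of cells against 23.6% of the other cells, yet its log2 fold change was -0.29 (adjusted p 1.42e-19). That p cannot be read as support for a lower level, since share and mean went opposite ways. Whether depth per cell set these shares was not tested.

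The other named neuron clusters differed widely in Psmb8. It was lower in the authors' deposited table in Cold.sen, with 7.0% of cells against 26.2% of the other cells (log2 fold change -0.40), in LTMR, with 11.7% against 25.9% (-0.41), and in Heat.sen, with 4.10% against 25.6% (-0.41, adjusted p 0.0349). SST had it in 40.8% of cells against 24.4%, at -0.26, and Peptidergic.488p in 20.3% against 25.5%, at -0.29, and neither passed the filter. Among the non-neuronal clusters it was lower in the Schwann-like Unknown.4, with 0.500% against 26.0% (adjusted p 1.16e-12), and in the mural-like Unknown.3, with 2.10% against 26.2% (adjusted p 6.53e-15). Low.UMI.LTMR had 0.400% against 26.1%. The share of cells with Psmb8 thus ran over nearly the whole scale, and the Schwann-like, mural-like and Low.UMI.LTMR clusters lay at its floor.

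Psmb9, the β1i subunit, was the rarest member, in 10.6% of all cells. It was higher in the authors' deposited table only in the endothelial-like Unknown.1, with 24.7% of cells against 9.20% of the other cells, a log2 fold change of 0.53 and an adjusted p of 2.71e-42. In the macrophage-like Unknown.488p it was in 19.2% against 10.4%, at 0.44 on the log2 scale, with an adjusted p of 1. The other 18 clusters were not listed for Psmb9 and had it in a mean of 8.96% of cells.

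Psmb10, the β2i subunit, was seen in 46.1% of all cells, nearer to its constitutive counterpart than either other inducible gene. The authors' deposited table had it lower in the mural-like Unknown.3, with 10.0% of cells against 47.5% of the other cells (log2 fold change -0.43, adjusted p 3.24e-22), in the fibroblast-like Unknown.6, with 12.8% against 46.8% (-0.36, adjusted p 1.28e-06), and in the Schwann-like Unknown.4, with 9.60% against 47.2% (-0.31, adjusted p 3.01e-16). It was not listed in Unknown.488p or in Unknown.1, where Psmb8 was higher. Its only higher cluster was Low.UMI.Nonpep, at 0.33 on the log2 scale in fewer cells, 16.7% against 50%. The 16 clusters that were not listed, all 10 named neuron clusters among them, had a mean share of 54.1%.

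**Figure D2:**
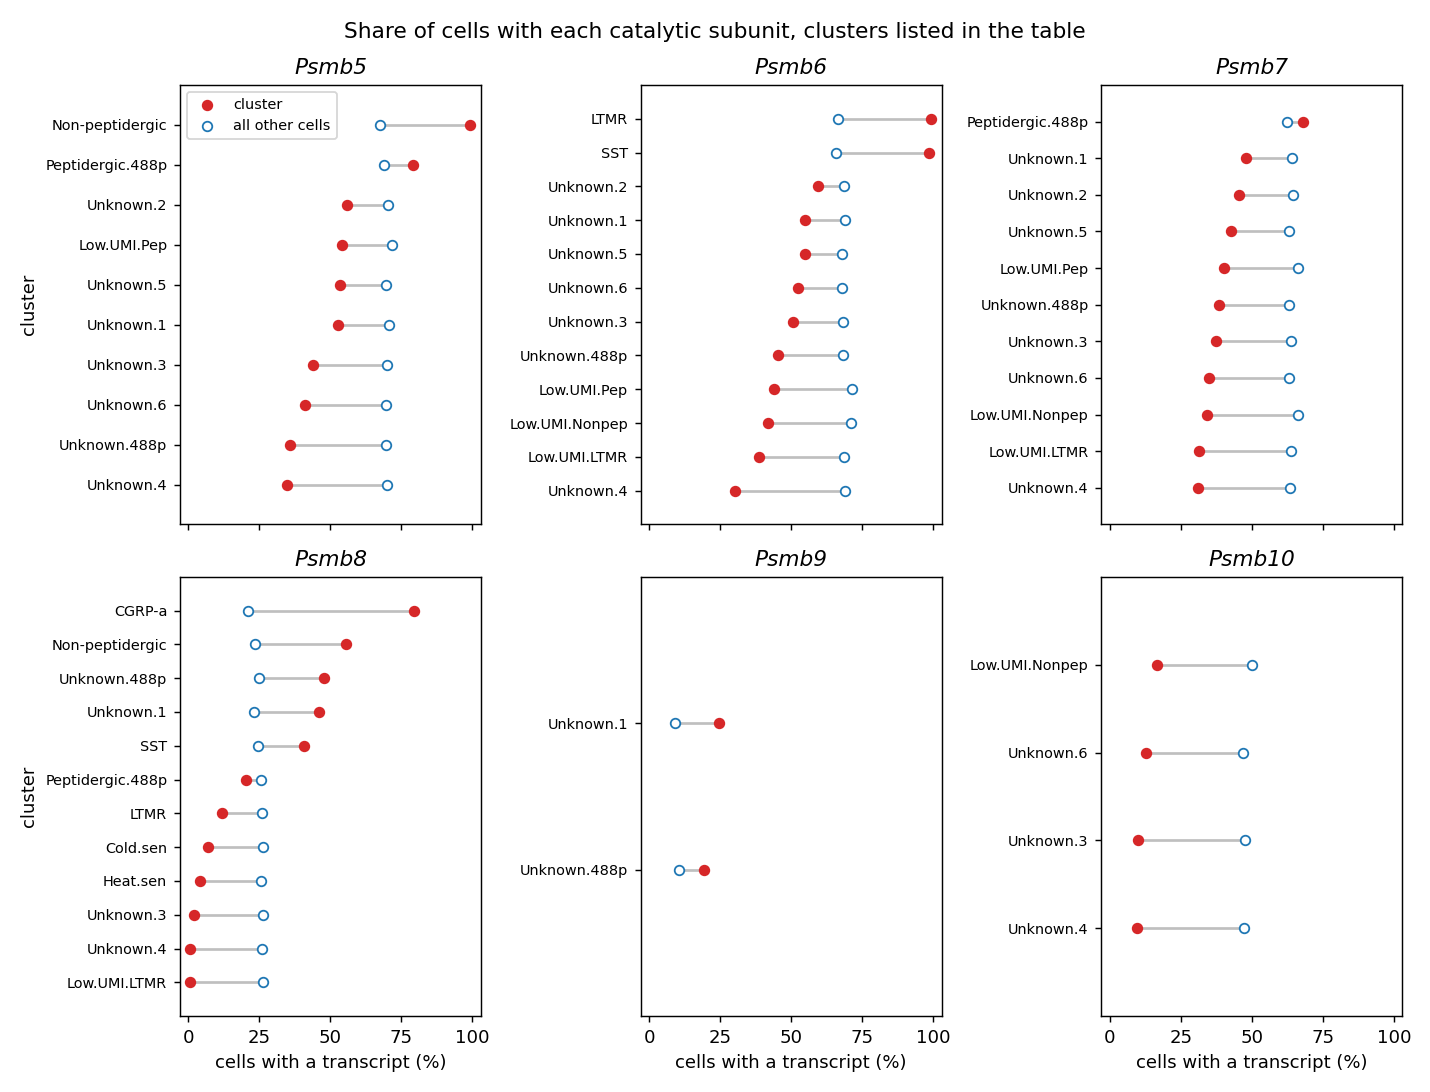
Percent of cells with each member in the cluster (filled) and in all other cells (open), 1 row for each cluster listed for that gene in the authors' deposited table and 1 panel for each gene. Psmb8 spreads from 0.400% in Low.UMI.LTMR to 79.5% in CGRP-a, whereas Psmb9 has 2 listed clusters.

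Set as mean levels against all cells, with the authors' unstated constant included, Psmb8 stood at 2.03 times in Unknown.488p, 1.70 times in Unknown.1 and 1.21 times in CGRP-a. Psmb9 stood at 1.39 times in Unknown.1, and Psmb5 at 0.46 times in Unknown.488p and 0.52 times in Unknown.1. Because a constant was added before the ratio, a plain ratio of means can only be bounded. For Psmb8 it lay between 2.03 and 5.16 in Unknown.488p, between 1.70 and 3.84 in Unknown.1 and between 1.21 and 1.86 in CGRP-a. These levels compare clusters within 1 gene, not genes with each other.

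By cell class, Psmb5 was seen in 49.2% of Unknown, 68.4% of Low.UMI and 84.4% of named neuron cells, weighting clusters by their size and giving clusters that are not listed their mean share. For Psmb5 the unlisted Low.UMI.LTMR and Low.UMI.Nonpep take the mean of 82.5% that they share with the unlisted named clusters. The listed Low.UMI.Pep had 53.9%, and the shared mean draws the Low.UMI and named neuron values of Psmb5 together. Psmb6 was in 52.8% of Unknown, 42.7% of Low.UMI and 96.4% of named neuron cells, and Psmb7 in 42.6%, 36.8% and 95.9% in the same order. Psmb8 was in 23.6% of Unknown, 13.9% of Low.UMI and 34.7% of named neuron cells, where 8 clusters from all 3 classes share 1 mean of 15.4%, which draws the classes together. No class shares are given for Psmb9 and Psmb10, since no named neuron cluster is listed for either. Only the Unknown values of Psmb5 and all values of Psmb6 and Psmb7 rest on clusters of which the listed and unlisted parts fall within 1 class.

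Within a pair the inducible subunit was in general seen in fewer cells than its counterpart. For the β5 pair, Psmb8 was in 25.3% and Psmb5 in 69.0% of all cells. Of the clusters listed for both genes in the authors' deposited table, Unknown.488p alone had the inducible gene in more cells, Psmb8 in 47.9% and Psmb5 in 35.6%, a difference of 12.3 points. In Unknown.1 the shares were near each other, 46.0% for Psmb8 and 52.8% for Psmb5, a difference of -6.80 points. In the other listed clusters the difference ran from -34.2 points in the Schwann-like Unknown.4 to -58.9 points in Peptidergic.488p. For the β1 pair, Psmb9 was in 10.6% and Psmb6 in 67.7% of all cells, with differences of -26.0 points in Unknown.488p and -30.2 points in Unknown.1. For the β2 pair, Psmb10 was in 46.1% and Psmb7 in 62.6% of all cells, with differences between -17.4 points in Low.UMI.Nonpep and -27.4 points in Unknown.3. Detection also depends on how well each transcript is captured, so these are differences in detection and not in amount of transcript.

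**Figure D3:**
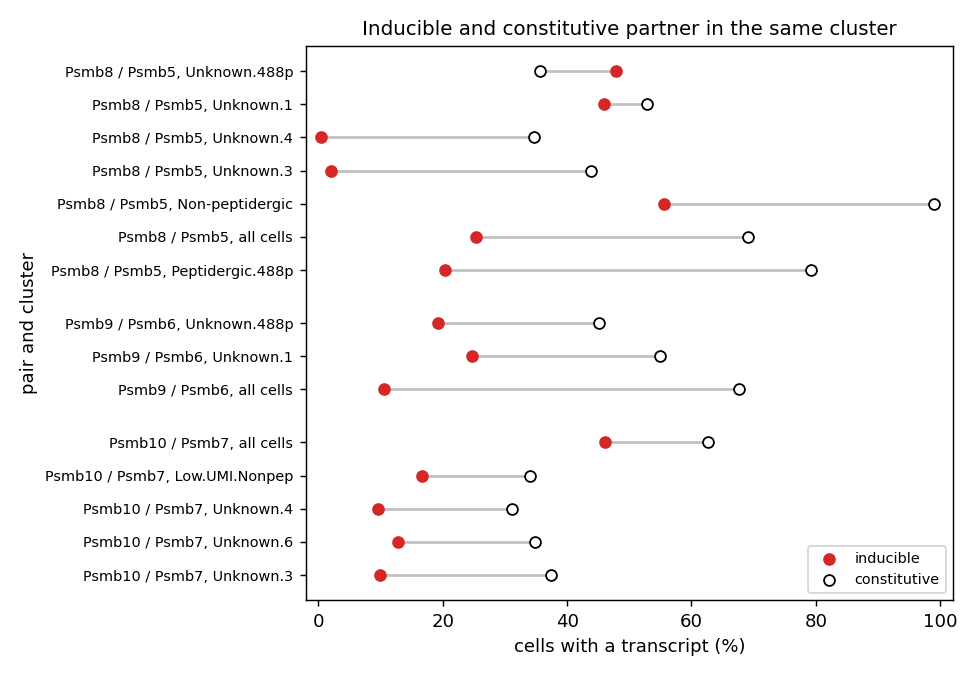
Percent of cells with the inducible (filled) and with the constitutive subunit (open) of each pair, for all cells and for each cluster listed for both genes in the authors' deposited table. Unknown.488p is the only cluster shown in which the inducible gene, Psmb8, has the higher share, 47.9% against 35.6% for Psmb5.

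Across the 20 clusters, with clusters that are not listed set to 0, the log2 fold changes of the constitutive genes followed each other closely. Pearson's r was 0.91 for Psmb5 with Psmb6, 0.93 for Psmb5 with Psmb7 and 0.91 for Psmb6 with Psmb7. Psmb8 with the constitutive genes had -0.45, -0.45 and -0.40. No r is given for Psmb9 and Psmb10, which are listed in 2 and 4 clusters. The points share the same cells, depth and zero values, so these are descriptions. Among 4513 genes listed in at least 5 clusters, those most like Psmb5 were Psmb1, a non-catalytic β subunit gene (r 0.97), Shc2, an adaptor gene (0.97), and Asns, asparagine synthetase (0.97). Psmb6 was most like Psmc2, a proteasome ATPase gene (0.96), Aldoa, a glycolytic enzyme gene (0.96), and Psmc1, another proteasome ATPase gene (0.95). Psmb7 was most like Vps28 (0.98), 2210016L21Rik (0.98) and Atp6v1d, a proton pump subunit gene (0.98). Psmb8 was most like Tgfb1, a growth factor gene (0.92), H2-K1, an MHC class I gene (0.91), and Trim25, a ubiquitin ligase gene (0.91).

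The 11 other subunit genes of the 20S core, which have no active site, moved with the constitutive members in most Unknown clusters. By the authors' deposited table, 58 of their 77 pairs with Unknown clusters (75.3%) were lower and none higher, with a median log2 fold change of -0.57 over the 72 listed pairs, beside -0.36 for all genes listed there. Of all genes 27.1% of such pairs were lower, and 46.8% for the genes seen in at least 50% of all cells. In Unknown.1 all 11 were lower, between -0.87 for Psmb1 and -0.40 for Psma3, and in Unknown.488p 7 were lower, between -0.98 for Psmb1 and -0.52 for Psma3. Unknown.5 differed: 7 were listed there and only 1 was lower, Psmb1 at -0.72, beside 2 of the 3 constitutive members. In the named neuron clusters 15 of 110 pairs (13.6%) were higher and none lower, near the 10.9% higher of all genes, and in the Low.UMI clusters 14 of 33 (42.4%) were higher, also beside 10.9%. Those Low.UMI calls are of the mean: between 94.8% and 95.9% of all genes called higher in each such cluster were seen in fewer cells. CGRP-a, where Psmb8 was higher, had no core subunit listed.

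The PA28 activator caps the barrel and is induced by interferon-γ like the immunoproteasome. Its subunit gene Psme1 was higher in the authors' deposited table in Unknown.1 alone, with 65.3% of cells against 52.5% of the other cells (log2 fold change 0.75, adjusted p 2.91e-57), and lower in 6 clusters. Its partner Psme2 was lower in Unknown.3 (-0.27) and Unknown.4 (-0.33) and higher in no cluster, and neither gene was listed in Unknown.488p. Of the assembly factors, Pomp, needed to complete the barrel, was higher in 3 clusters and lower in 5, and Psmg2, a chaperone of the α ring, was higher in 2. Nfe2l1, which raises proteasome gene transcription when the proteasome is inhibited, was lower in 4 Unknown clusters, between -1.05 in Unknown.488p and -0.68 in Unknown.4, and higher in Low.UMI.Nonpep at 0.60 in fewer cells, 34.0% against 62.3%. Nfe2l2, searched beside it as a regulator of proteasome genes, was higher in Unknown.488p at 1.53 and in Unknown.1 at 0.85. By log2 fold change Nfe2l2 was lower in neuronal clusters, among them Cold.sen at -0.62, Peptidergic.488p at -0.47 and Low.UMI.Pep at -0.37, each in fewer cells. LTMR, SST, CGRP-n and CGRP-e were lower too but had it in more cells than elsewhere. Their shares ran from 75.6% against 42.6% in CGRP-e to 93.5% against 42.1% in LTMR.

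Peptides cut by the proteasome are carried by the Tap1 and Tap2 transporter and loaded on MHC class I with Tapbp, tapasin. Of the 10 antigen presentation genes, 6 were higher and 1 lower in Unknown.1 in the authors' deposited table, with a median log2 fold change of 0.75 over the listed genes beside -0.31 for all genes. B2m, the MHC class I light chain, had 1.56, H2-K1 1.09, H2-D1 1.08, Tapbp 0.75 and Tap2 0.46, while Canx, a general chaperone gene, had -0.44. In Unknown.488p 4 were listed, 3 of them higher: B2m at 2.05, H2-D1 at 1.68 and H2-K1 at 1.62. Tap1 there had 0.32, with 15.1% of cells against 8.90%, and did not pass the filter. In CGRP-a none was higher and 1 was lower by log2 fold change, Pdia3 at -0.65, though seen in more cells, 99.5% against 72.0%. Of all genes, 18.0% were higher and 28.8% lower in Unknown.1, 9.91% and 33.0% in Unknown.488p, and 12.5% and 7.26% in CGRP-a. Over all 20 clusters 24 of the 200 antigen presentation pairs were higher and 25 lower, 12.0% and 12.5%, near the 10.6% and 15.9% of all genes. In the Unknown clusters where Psmb8 was not listed, 4 were higher in Unknown.2, 3 in Unknown.5 and 3 in Unknown.6, and none was lower. Of the neuronal clusters where it was not listed, Low.UMI.Pep had 4 lower and none higher. Low.UMI.Nonpep had 2 higher and 1 lower, and CGRP-z 1 higher. Where Psmb8 was lower, 5 were lower in Unknown.3 and 2 in Unknown.4. Among neuronal clusters with lower Psmb8, 2 were lower in Heat.sen, 2 in Low.UMI.LTMR, 1 in Cold.sen and 1 in LTMR, and 1 was higher in Low.UMI.LTMR. In the Unknown clusters together 19 of 70 pairs (27.1%) were higher and 8 lower (11.4%), beside 10.2% and 27.1% of all genes.

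Genes of interferon signalling were counted beside them. The authors' deposited table holds 12 of 13 regulators, of which 6 were higher and 1 lower in Unknown.1, and 3 were higher in Unknown.488p. Of all genes, 18.0% were higher and 28.8% lower in Unknown.1, 9.91% and 33.0% in Unknown.488p, and 12.5% and 7.26% in CGRP-a. Over all clusters 18 of 260 regulator pairs were higher and 35 lower, 6.92% and 13.5%, beside 10.6% and 15.9% of all genes. Irf1, a transcription factor for Psmb9 and MHC class I genes, had 1.74 in Unknown.1, and Ifngr2, an interferon-γ receptor chain gene, -0.28. In Unknown.488p the higher ones were Ifnar2, a type I interferon receptor chain gene, at 1.26, Ifngr1, the other interferon-γ receptor chain gene, at 1.22, and Irf8, a myeloid transcription factor gene, at 0.63. Nlrc5, an activator of MHC class I genes, was listed in no cluster. In CGRP-a 1 regulator was higher, Jak2, a receptor kinase gene, at 0.87, and 2 were lower by log2 fold change, Jak1, another such kinase gene, at -0.81 and Ifnar2 at -0.32. Yet these 2 were seen in more CGRP-a cells than elsewhere, Jak1 in 97.9% against 59.4% and Ifnar2 in 62.8% against 40.3%.

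Of 15 interferon target genes 14 were in the authors' deposited table, and 11 were higher and 1 lower in the endothelial-like Unknown.1. Ifitm3, an antiviral membrane protein gene, had 3.02, and Iigp1, an interferon-inducible GTPase gene, 2.93, with 77.3% of cells against 3.30%. The macrophage-like Unknown.488p had 3 higher and 1 lower, between 1.75 for Ifitm2 and -1.36 for Ifi27. CGRP-a had none higher and 5 lower by log2 fold change. Among these 5, Ifitm2 at -0.59 was seen in more cells, 78.6% against 39.5% of the other cells. Unknown.2, Unknown.3, Unknown.5 and Unknown.6, without more Psmb8, each had 2 higher, with 4, 4, 1 and 3 lower. Unknown.4, also without more Psmb8, had none higher and 7 lower. Over all clusters 30 of 300 target pairs were higher and 75 lower, 10.0% and 25.0%, beside 10.6% and 15.9% of all genes. Of the 3 clusters with more Psmb8, Unknown.1 thus had 11 of 14 target genes higher, Unknown.488p 3 and CGRP-a none, where 18.0%, 9.91% and 12.5% of all genes were higher. A difference between these counts was not tested.

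**Figure D4:**
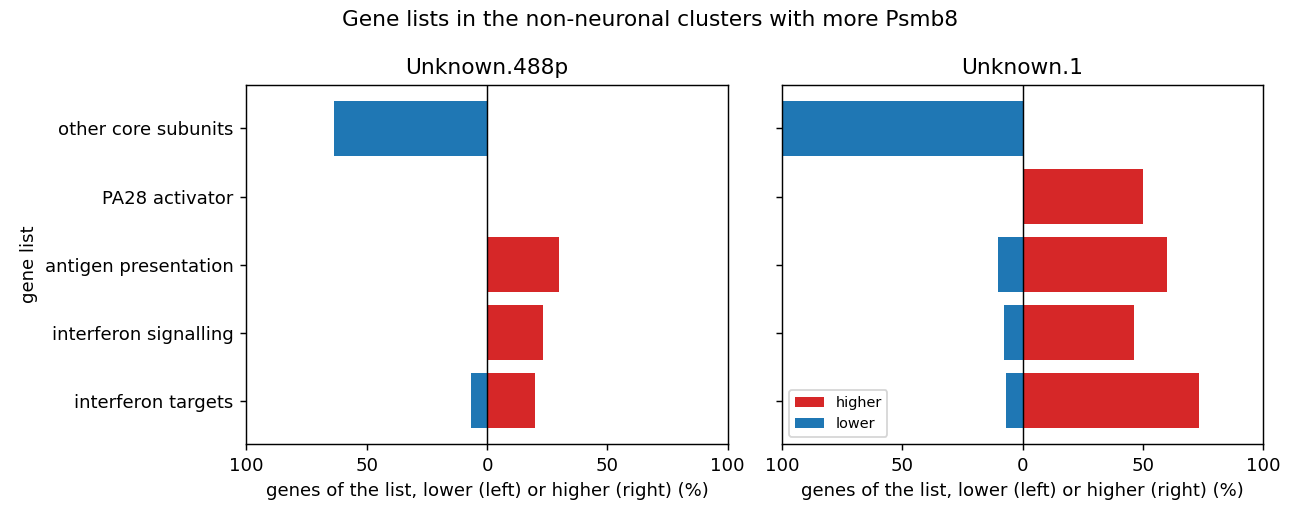
Percent of the genes of each list (rows) that were higher (bars to the right) or lower (bars to the left) in Unknown.488p and in Unknown.1 than in all other cells, by the authors' deposited table, out of all genes of the list, also those not in the table. Of the 11 other core subunits 7 were lower in Unknown.488p and 11 in Unknown.1, and of the 15 interferon targets 3 were higher in Unknown.488p and 11 in Unknown.1.

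Gpm6a and Gpm6b encode membrane glycoproteins reported to hold the neuronal membrane proteasome at the cell surface. In the authors' deposited table Gpm6a was higher in Peptidergic.488p, with 40.7% of cells against 13.1% (log2 fold change 0.62), where Psmb5 was higher too, and lower in SST (-0.32) and CGRP-a (-0.28), where Psmb5 was not listed. Gpm6a was also higher in Low.UMI.Nonpep at 0.27, in fewer cells. Gpm6b was lower in all 3 clusters with more Psmb5, at -1.58 in Peptidergic.488p, -1.59 in Non-peptidergic and -1.63 in Low.UMI.Pep. It was about as low in SST (-1.59) and LTMR (-1.55), where Psmb5 was not listed. In Cold.sen and Heat.sen, also not listed for Psmb5, it was lower by log2 fold change (-1.05 and -0.48). It was nevertheless seen there in more cells than elsewhere, 48.0% against 16.8% in Cold.sen and 78.6% against 17.4% in Heat.sen. It was lower too in Unknown.3 (-1.48) and Unknown.1 (-1.35), where Psmb5 was lower. Of the 40 pairs of both genes 10.0% were higher and 40.0% lower, beside 10.6% and 15.9% of all genes. Gpm6b was highest in the satellite-glia-like Unknown.2, with 96.9% against 10.4% (log2 fold change 3.74), and was higher in the Schwann-like Unknown.4 at 1.80, where Psmb5 was lower.

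Some counts may be shared between loci. Psmb7, Psmb8, Psmb9 and Psmb10 each overlap a gene on the opposite strand in the mouse annotation, namely Nek6, Gm20496, Tap1 and Gm16156, and no source here says whether counting used strand, so reads of a pair cannot be told apart. RefSeq also lists pseudogenes of Psmb5, Psmb6 and Psmb7, and how reads that match both were counted is likewise not given.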

How the data were processed

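The members and gene lists were chosen with earlier results of these data known. Cells of dorsal root ganglia, sorted as NMP-positive (4 lanes) and NMP-negative (4 lanes), were sequenced by 3′ droplet counting. The extraction protocol in the labels names nuclei isolation, and whether cells or nuclei were loaded is not stated. Per the file headers, the authors deposited a raw and an adjusted p-value for each gene and cluster. Their log2 fold change, per the file headers, sets the cluster's average against the remaining cells. Detection was deposited as a fraction of the cluster and a fraction of the remaining cells, printed here as percentages. Seurat is named in the submitters' processing notes. Aligner, build, annotation, cell filters, normalization, clustering and doublet treatment: not given in the sources used here. There are 56694 pairs of gene and cluster in all.

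The deposited adjusted p-value is the p-value times 32285. It was used only as a filter, and no test was run, since there is no replicate and no sample column. The weight of each cluster was solved by least squares from the fractions of 6748 genes that differ by at least 5 points (Python 3.11.15, numpy 2.4.6, pandas 2.3.3), and the step was checked on simulated data. The weights summed to 100.01%. Over 34 genes listed in all 20 clusters, the weighted levels relative to all cells summed to between 0.99999 and 1.00014, so the fold change is a ratio of mean levels plus a constant. In 777 pairs with a fraction of 0 it is still finite. Depth is unknown. All 6 members were named, with the 3 genes most like each member listed in at least 5 clusters by Pearson's r, which leaves out Psmb9 and Psmb10. Alternatives were a stricter p, a larger fold change, a larger share, the same direction of share, other weights and the clusters without Low.UMI.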

Additional observations from a re-analysis of the deposited data

How the results depend on the processing

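Of 120 pairs, the 12 higher calls of the members came to 10 at an adjusted p under 0.001, 8 where the share also had to be higher, 11 at a share of at least 25%, and 4 where the absolute log2 fold change had to reach 0.5. The 30 lower calls came to 28, 29, 30 and 18 in the same order. Without the Low.UMI clusters, an alternative chosen after seeing the data, 8 higher and 29 lower calls were left, and the background of genes in at least 50% of all cells was also added then. Where the absolute log2 fold change had to reach 0.5, the other core subunits had 6 higher calls in place of 29 and 47 lower in place of 58, the interferon targets 23 higher in place of 30 and 49 lower in place of 75, and the antigen presentation genes 12 higher in place of 24 and 17 lower in place of 25. The fall in these counts follows from the stricter limit.

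The share of all cells from the largest cluster alone was 67.6% for Psmb6 (67.7% from all clusters) and 25.3% for Psmb8. The difference in share between Unknown and named neuron cells was -42.6 points for Psmb5 with unlisted clusters left out and -38.5 as an unweighted mean of clusters (-35.1 as reported), -46.2 and -46.7 for Psmb6 (-43.7), -25.4 and -55.4 for Psmb7 (-53.3), and -11.0 and -6.13 for Psmb8 (-11.1). Psmb9 and Psmb10, with no listed named neuron cluster, have no such difference. The value of -25.4 rests on 1 named neuron cluster. The value of -35.1 for Psmb5 gives the unlisted named and Low.UMI clusters 1 shared mean. Relative levels without the added constant were not computed, because the constant is not given. No paired analysis was possible because the values carry no sample. The number of cells and the depth per cell are not given, so low shares have no interval, and pairs that are not listed limit Psmb9 most.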
